A study of Homo sapiens with 12 samples.

Results

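The BCL2 family decides in most animal cells whether the mitochondrial outer membrane is opened, the step that commits a cell to apoptosis. The 10 family genes described here were taken by symbol from a fixed list of survival and death genes, and all 10 of them are among the 12357 genes of the footprint count table. They are the survival genes MCL1, BCL2, BCL2L1 and BCL2A1, the effector genes BAX and BAK1, and BCL2L11, BBC3, PMAIP1 and BID, whose proteins carry only the BH3 domain. The authors kept genes with a read in each library, and all 10 members met that filter. The counts come from ribosome profiling, in which the stretch of mRNA covered by a ribosome is protected from nuclease, sequenced and counted per gene.

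Lymphoblastoid cell lines are B lymphocytes that Epstein-Barr virus has immortalized, and 3 of them, GM18505, GM19193 and GM19204, were used, all labelled as wild type. One culture of each line received sodium arsenite, an oxidative stressor, for 30 min, and a parallel control culture received nuclease free water, so that n = 3 cell lines in each group, with 1 culture per line and group. Each culture gave 2 libraries, T with and U without CRISPR/Cas9 depletion of ribosomal RNA, whose counts were summed. Counts in genes ranged from 637177 to 1730558 per arsenite library and from 1979496 to 4112703 per control library. All 12 B lineage markers on the list were present in the table, among them MS4A1, CD79A and PAX5. Together these markers took 12487, 9451 and 11160 per 1000000 gene counts in arsenite cultures of GM18505, GM19193 and GM19204, against 15695, 11566 and 15177 in their control cultures, lower in every line. Of 19 markers of other cells, only EPCAM, COL1A1 and COL1A2 were in the table. Their summed count was 21, 268 and 36 in arsenite cultures of GM18505, GM19193 and GM19204, against 30, 40 and 29 in the control cultures. Per 1000000 gene counts this was 15.8, 109 and 15.4 under arsenite, against 4.77, 7.82 and 4.48 in control, higher under arsenite in every line. The arsenite culture of GM19193 stood farthest from the others, through 239 counts of COL1A2 (a fibroblast collagen gene) where every other sample had from 10 to 20, and the part of these markers in the results was not tested beyond leaving out each line.

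MCL1, BCL2, BCL-XL (from BCL2L1) and BFL-1 (from BCL2A1) hold BAX and BAK in check by binding them and the BH3-only proteins. When BH3-only proteins outnumber their partners, BAX and BAK form pores in the outer membrane and cytochrome c leaves the mitochondria. MCL1 and BFL-1 are degraded fast, which makes their level depend on continued translation, whereas BCL2, BCL-XL, BAX and BAK are stable proteins, and NOXA (from PMAIP1), which binds MCL1 and BFL-1, is itself short-lived. In B cells that carry Epstein-Barr virus, the viral LMP1 protein induces BCL2A1 through NF-kB, and EBNA3 proteins repress BCL2L11.

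The bases at the start codon are shown for both short-lived survival genes and for the members with the smallest and largest fitted change, as the place where translation of the main reading frame begins. Footprints were counted over all exons, those upstream of this codon included. The start codon is in capitals, with the 9 bases before and the 6 bases after it in lower case, on the transcript strand of the canonical GENCODE transcript.
MCL1: cgactggcaATGtttggc
BCL2A1: aggcagaagATGacagac
PMAIP1: ccggcggagATGcctggg
BID: gcccaggccATGgactgt
The A of these start codons lies on GRCh38 at position 150579530 of chromosome 1 for MCL1, 79971119 of chromosome 15 for BCL2A1, 59900178 of chromosome 18 for PMAIP1 and 17750116 of chromosome 22 for BID. Counted from that A as position 1, position −3 held A or G in 9 of 10 members, all but BCL2L11, against 87.0% of the 10851 coding genes tested whose transcript reaches so far. Position 4 held G in 6 of 10 members, against 54.5% of those genes. At least 1 ATG upstream of the start codon, in any frame, was found in 5 of 10 members, BCL2 with 8, BCL2L1 and BAK1 with 3 each, BBC3 with 2 and BCL2L11 with 1, against 40.7% of 10872 coding genes tested.

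The pentamer ATTTA in the 3' UTR is the core of AU-rich elements, which mark many short-lived mRNAs. It was searched on the transcript strand alone, with overlapping matches counted, and was found in 6 of 10 members, against 73.6% of coding genes tested. BCL2 held 13 copies, MCL1 10, BCL2L11 8, PMAIP1 5, BCL2L1 3 and BID 2, where the median coding gene held 2. BCL2A1, whose 3' UTR has 175 nt, BAX, BAK1 and BBC3 held none. The densest 25 bases of the 4 members with the most copies are shown with the pentamers in capitals.
MCL1: gacctaATTTAactggtgaaATTTA
BCL2: taagaaaaaaagATTTATTTATTTA
BCL2L11: tgtatATTTAttttctgcttATTTA
PMAIP1: taattttATTTAttttgcctATTTA
Under arsenite the log2 fold changes were −1.47 for BCL2, −1.72 for MCL1 and −0.87 for BCL2L11. They were −0.73 for PMAIP1, −0.87 for BCL2L1 and −2.98 for BID. The members without the pentamer had −1.35 (BCL2A1), −2.51 (BAX), −2.25 (BAK1) and −0.93 (BBC3). A link between copy number and change was not tested in the members. Over all coding genes tested, the median log2 fold change was −2.06 for 2866 genes without the pentamer and −1.78 for 3731 genes with 5 or more copies, and among genes with a mean of at least 100 counts −2.32 for 1623 genes without it and −2.14 for 1862 genes with 5 or more copies, which is a description without a test.

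Whether arsenite lowered the ribosome occupancy of the family was asked on a scale set by 16 synthetic oligomers that had been added to each sample, of which 7 had enough reads to be used. Footprints of 9 of 10 members fell under arsenite and none rose, at an adjusted p under 0.05 in edgeR's quasi-likelihood test over all genes. The falls ran from 1.82-fold for BCL2L11 to 7.88-fold for BID, and PMAIP1 was the member that did not pass. The background was a fall in 74.1% of the 12357 genes tested, a rise in 1.12% and a median log2 fold change of −1.78, against a median of −1.41 over the 10 members. Among the 6045 genes with a mean of at least 100 counts per sample, to which 9 of 10 members belong and BBC3 does not, the median was −2.21, so BAK1 lay near it and MCL1 above it. In 6 members all arsenite values lay below all control values, a pattern that 68.7% of all genes had. The oligomers were added by weight of RNA from the digested ribosome fraction, so the scaled values are footprints per amount of that RNA. Fewer mRNA copies and fewer ribosomes per copy cannot be told apart in these values. Nor can a shift in the make-up of a culture and a change within its cells. The number of cells does not enter this scale, so it gives no values per cell.

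**Figure D1:**
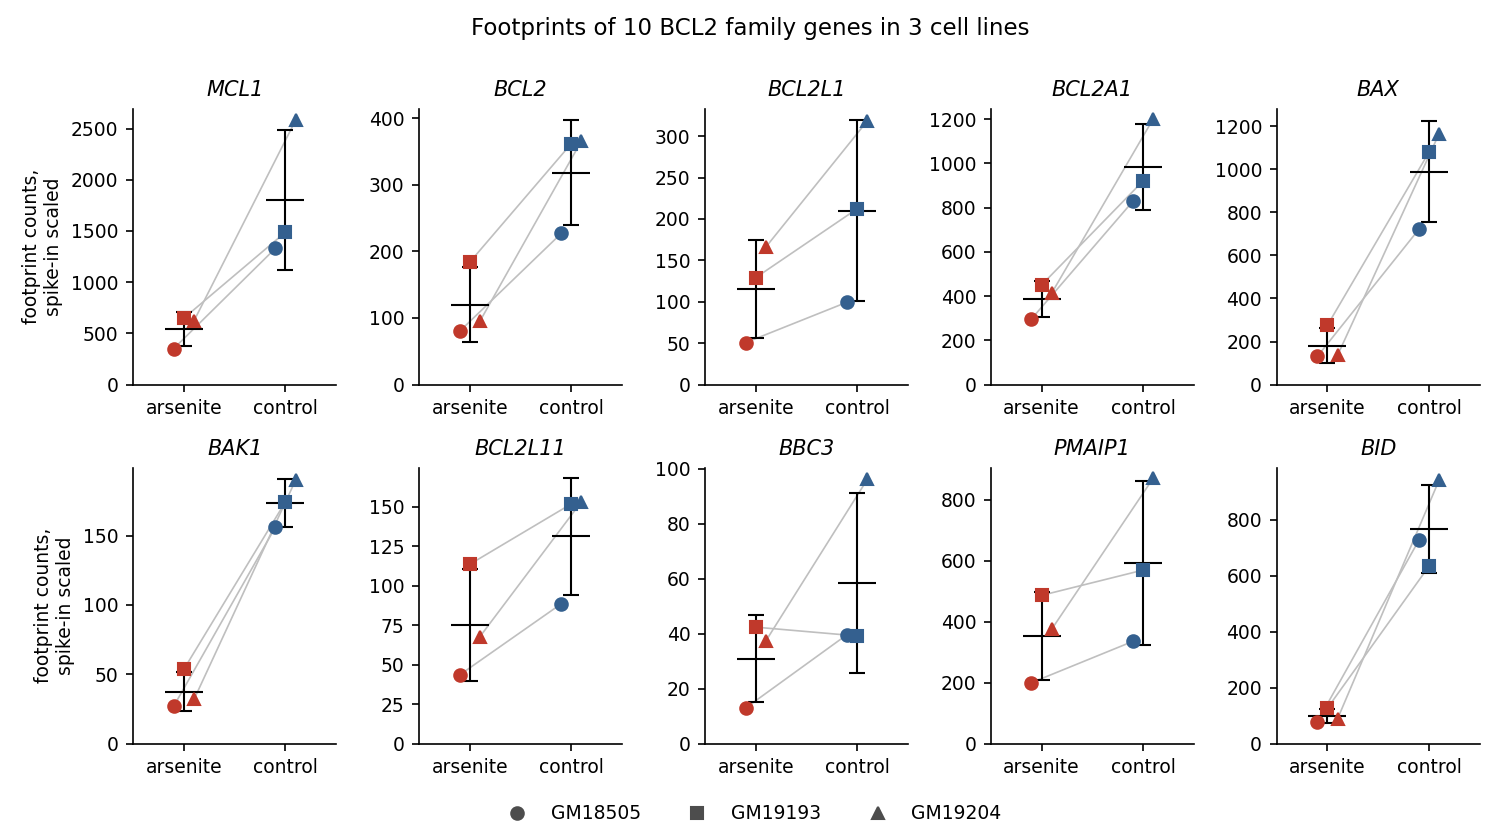
Spike-in scaled footprint counts (vertical axis, summed over both libraries) of each gene in arsenite cultures (left, red) and control cultures (right, blue) of GM18505 (circles), GM19193 (squares) and GM19204 (triangles), with thin lines joining the cultures of a cell line and black bars for the mean ± SD of 3. BID has the widest gap, with 77.6 to 127 under arsenite and 634 to 941 in control, whereas the groups overlap for BCL2L1, BCL2L11, BBC3 and PMAIP1.

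The pore-forming effectors were among the members that fell most. BAX (chr19:48954815-48961798, plus strand, GRCh38) had 131, 276 and 136 in arsenite cultures of GM18505, GM19193 and GM19204, against 721, 1079.7 and 1166 in their control cultures, in spike-in scaled counts. Every arsenite culture was below every control culture, with means of 181 ± 82.2 scaled counts under arsenite and 989 ± 236 in control (SD, n = 3 each) and a fall of 5.68-fold (log2 fold change −2.51 ± 0.38 SE, edgeR adjusted p = 4.53e-10). BAK1 (chr6:33572547-33580293, minus strand) had 27.1, 53.7 and 32.0 scaled counts under arsenite, against 156, 174 and 190.0 in control, in the same order of cell lines. Its groups were apart as well, and the fall was 4.76-fold (log2 fold change −2.25 ± 0.41 SE, edgeR adjusted p = 1.73e-07). BAK1 was counted thinly, with 8 to 31 reads per arsenite library and 55 to 130 per control library.

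Among the BH3-only genes, BID had the lowest log2 fold change of the family and PMAIP1 the highest in the fit. BID (chr22:17734138-17774770, minus strand), whose protein is cut by caspase-8 and carries the death receptor signal to mitochondria, had 77.6, 127 and 89.1 in arsenite cultures of GM18505, GM19193 and GM19204, against 726, 634 and 941 in their control cultures. Arsenite cultures thus kept 12.8% of the control mean (log2 fold change −2.98 ± 0.39 SE, edgeR adjusted p = 1.65e-12), the largest fall of the family in each of the 3 cell lines. Only 3.53% of all genes tested had a lower log2 fold change than BID. PMAIP1 (chr18:59899996-59904305, plus strand), which encodes NOXA, had 199.98, 486 and 376 scaled counts under arsenite, against 336, 569.5 and 871 in control, so that the groups overlapped. The arsenite culture was the lower one in each cell line, with log2 fold changes of −0.74 (GM18505), −0.23 (GM19193) and −1.21 (GM19204), and the difference did not pass (log2 fold change −0.73 ± 0.36 SE, edgeR adjusted p = 0.0583).

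BCL2L11 and BBC3 encode BIM and PUMA, BH3-only proteins that bind every survival protein of the family. BCL2L11 (chr2:111119378-111168444, plus strand) had 43.5, 114 and 67.8 scaled counts under arsenite, against 88.6, 152 and 153 in control, and only the arsenite culture of GM19193 reached above the lowest control. It fell 1.82-fold (log2 fold change −0.87 ± 0.39 SE, edgeR adjusted p = 0.0378). BBC3 (chr19:47220822-47232766, minus strand) had the fewest reads, from 3 to 30 per arsenite library and from 10 to 57 per control library. Its scaled counts were 12.9, 42.3 and 37.3 under arsenite, against 39.6, 39.2 and 96.1 in control, and it was higher under arsenite in GM19193 while lower in both other lines. Within GM19193 its log2 fold change was 0.39 in the T libraries and −0.03 in the U libraries. The fit gave a fall of 1.91-fold (log2 fold change −0.93 ± 0.42 SE, edgeR adjusted p = 0.038). BBC3 was the exception to a fall in all 3 cell lines, which the other 9 members showed. The median gene was lower in each line too, at −1.86 (GM18505), −1.29 (GM19193) and −2.21 (GM19204) on the log2 scale. The stricter pattern of all arsenite values below all control values was found in 68.7% of all genes.

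The survival genes were lower under arsenite too, by amounts between those of BAX and PMAIP1. MCL1 (chr1:150560895-150579738, minus strand) took more reads than any other member and had 352, 649 and 624 in arsenite cultures of GM18505, GM19193 and GM19204, against 1329, 1488 and 2581 in their control cultures. Its groups were apart, with means of 541 ± 165 scaled counts under arsenite and 1799 ± 682 in control (SD, n = 3 each), and the fall was 3.30-fold (log2 fold change −1.72 ± 0.37 SE, edgeR adjusted p = 6.67e-06). BCL2A1 (chr15:79960892-79971196, minus strand) had 296, 450.4 and 414 scaled counts under arsenite, against 829, 921 and 1202 in control, again with no overlap, and a fall of 2.55-fold (log2 fold change −1.35 ± 0.36 SE, edgeR adjusted p = 3.44e-04). BCL2 (chr18:63123346-63320128, minus strand) had 80.0, 184 and 95.2 scaled counts under arsenite, against 227, 362 and 366 in control, with the groups apart and a fall of 2.77-fold (log2 fold change −1.47 ± 0.39 SE, edgeR adjusted p = 2.98e-04). BCL2L1 (chr20:31664452-31723989, minus strand) had 50.6, 129 and 166 scaled counts under arsenite, against 99.5, 212 and 318 in control, where the arsenite cultures of GM19193 and GM19204 were above the control culture of GM18505. It fell 1.83-fold (log2 fold change −0.87 ± 0.39 SE, edgeR adjusted p = 0.0341), with a narrow spread between cell lines of −0.97 (GM18505), −0.72 (GM19193) and −0.94 (GM19204).

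The number of members that fell depended on which cell lines entered the fit. Without GM19193 all 10 fell, beside 78.0% of all genes, PMAIP1 included (log2 fold change −0.99, edgeR adjusted p = 5.32e-05). Without GM19204, 6 fell, namely MCL1, BCL2, BCL2A1, BAX, BAK1 and BID, beside 66.1% of all genes. Without GM18505 only BAX, BAK1 and BID passed, beside 54.3% of all genes, although the log2 fold changes of the other members stayed between −0.65 for BBC3 and −1.62 for MCL1. The calls of BCL2L1, BCL2L11 and BBC3 also ended, leaving 6, with counts left unscaled, with the cell line left out of the model or with the scale from the oligomers numbered 3 and 4 of each mix. In these settings 8308, 8421 and 8970 of all 12357 genes fell, in the same order. BBC3 further lost its call with all 16 oligomers (edgeR adjusted p = 0.0581), in DESeq2 on the spike-in scale (0.0605), in the T libraries alone (0.114) and in the U libraries alone (0.0773). BCL2L1 lost its call in the T libraries alone (edgeR adjusted p = 0.215) and BCL2L11 in the U libraries alone (0.0848). PMAIP1 gained a call in DESeq2 on the spike-in scale (adjusted p = 0.0232), in the T libraries alone (0.0479) and with the T and U libraries of a culture as separate samples (1.40e-04), which counts technical replicates as independent.

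**Figure D2:**
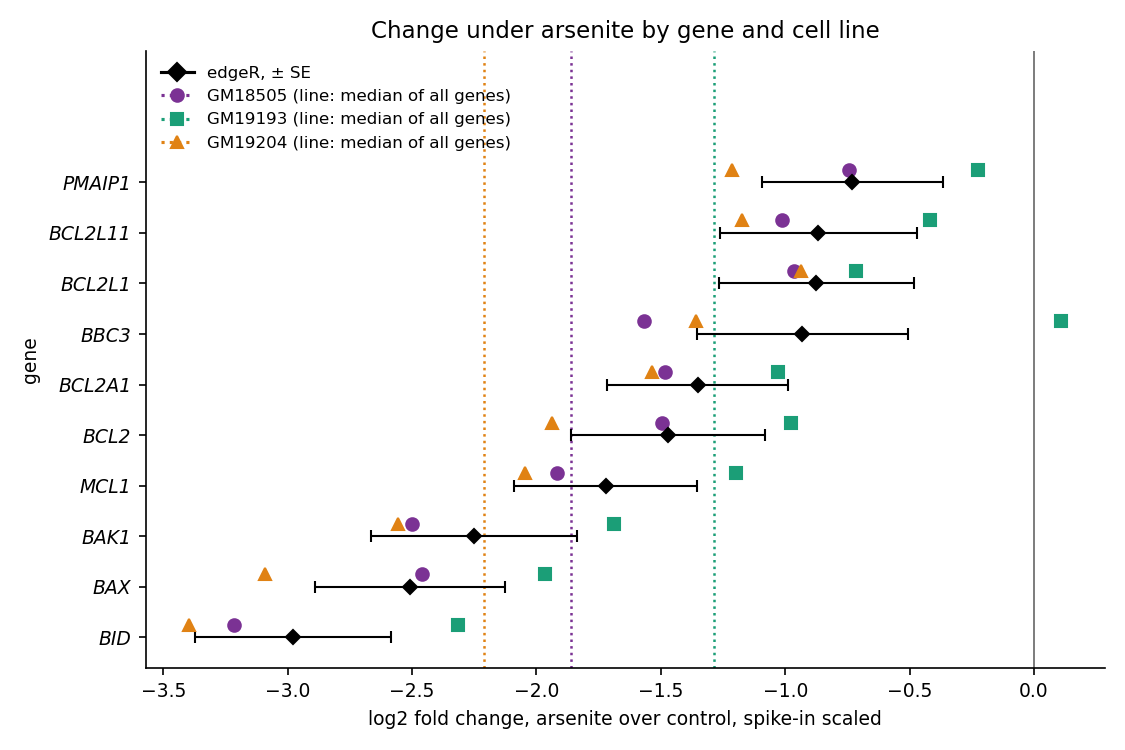
Log2 fold change of arsenite over control on the spike-in scale (horizontal axis) for each gene, as the edgeR estimate with its standard error (black diamonds) and as the values of GM18505 (circles), GM19193 (squares) and GM19204 (triangles), with dotted lines at the median of all genes in each cell line. BID, BAX and BAK1 lie below the median of all genes in each line, MCL1 lies close to it, the 6 other members lie above it, and BBC3 in GM19193 is the one value above 0.

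With most genes lower, the position of each member relative to the typical gene was examined with TMM scaling. TMM moved the median log2 fold change of the 12357 genes up by 1.81, to 0.03. On that scale 6 members rose, 2 fell and 2 did not pass, where 27.8% of all genes rose and 26.6% fell. The fitted changes of these 6 thus turn round between the scales. They lie below control in footprints per amount of RNA and above it relative to the typical gene. On the spike-in scale, however, PMAIP1 did not pass (edgeR adjusted p = 0.0583), and BBC3 was above control in GM19193. PMAIP1 had the highest value relative to the typical gene, though not without GM19193, where BCL2L1 was higher, or without GM18505, where BBC3 was higher (all 3 lines: log2 fold change 1.09 ± 0.09, edgeR adjusted p = 8.80e-05), followed by BCL2L1 at 0.95 ± 0.17 (adjusted p = 0.0023) and BCL2L11 at 0.95 ± 0.17 (adjusted p = 0.00221), both in the edgeR fit. BBC3 at 0.91 ± 0.29 (edgeR adjusted p = 0.0295), BCL2A1 at 0.47 ± 0.10 (0.00616) and BCL2 at 0.34 ± 0.13 (0.0495) passed as well. BID fell by 1.16 ± 0.11 (edgeR adjusted p = 1.46e-04) and BAX fell by 0.69 ± 0.10 (9.09e-04). MCL1 at 0.10 ± 0.09 (0.358) and BAK1 at −0.44 ± 0.19 (0.0832) did not pass.

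The calls relative to the typical gene held without any 1 cell line and with DESeq2's own size factors for PMAIP1, BCL2L1, BCL2L11 and BCL2A1, which rose, and for BID and BAX, which fell. BCL2 passed in none of these 4 settings, and BBC3 only without GM18505. Standard errors of the members ran from 0.0874 to 0.295 on this scale and from 0.363 to 0.425 on the spike-in scale. Among genes with a mean of at least 100 counts, the median on the TMM scale was −0.39.

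A comparison of members within a cell line needs no scale, because the scale of a library cancels out. MCL1 and BCL2A1, which encode the fast-degraded survival proteins, were each set against the median of the 8 other members. The log2 fold change of MCL1 was lower than that median by 0.38 ± 0.02 (SD, n = 3 cell lines), with per-line differences of −0.38 (GM18505), −0.35 (GM19193) and −0.40 (GM19204). The exact two-sided sign-flip test gave p = 0.25, the smallest value that 3 cell lines allow. The size depended on how the others were summarised, as the difference was −0.14 from their mean and −0.23 from their median with PMAIP1, itself short-lived as a protein, left out. BCL2A1 differed from the median by −0.01 ± 0.16, with 0.05 (GM18505), −0.19 (GM19193) and 0.11 (GM19204), and an exact sign-flip p = 1. Its sign was not stable, since the difference was 0.08 without GM19193, 0.23 from the mean of the others and 0.14 from their median with PMAIP1 left out. In all 3 cell lines BCL2A1 lay above BAX (mean difference 1.16 ± 0.35) and BAK1 (0.90 ± 0.21). BCL2L1 lay above BCL2A1 in all 3 (0.48 ± 0.15), while the sign against BCL2 varied between lines. The change of MCL1 was also below that of BCL2A1 in all 3 cell lines, with differences of −0.43, −0.17 and −0.51 in the same order and a mean of −0.37 ± 0.18.

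The order of the members by their change varied little for some and more for others between cell lines. Counted from the least to the most lowered, MCL1 ranked 7th of 10 in each line and BID 10th, while PMAIP1 ranked 1st in GM18505, 2nd in GM19193 and 3rd in GM19204, and the thinly counted BBC3 ranked 6th, 1st and 4th. The differences of PMAIP1 from BCL2L1, BCL2L11 and BBC3 did not keep 1 sign over the 3 lines. Of the 45 pairs of members, 35 had the same sign of their difference in all 3 cell lines. The pairs share their genes, and no such share was taken over pairs of all genes, so this count is a description only. The log2 fold change of MCL1 exceeded that of its partner BAK1 by 0.58, 0.49 and 0.51 in GM18505, GM19193 and GM19204, a mean log2 difference of 0.53 ± 0.05. MCL1 minus its partner PMAIP1 gave a mean of −0.99 ± 0.17, and MCL1 minus BCL2L11 gave −0.85 ± 0.06, negative in every line. The log2 fold change of PMAIP1 exceeded that of BID by 2.47, 2.09 and 2.18, a mean of 2.25 ± 0.20 (SD, n = 3 cell lines).

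**Figure D3:**
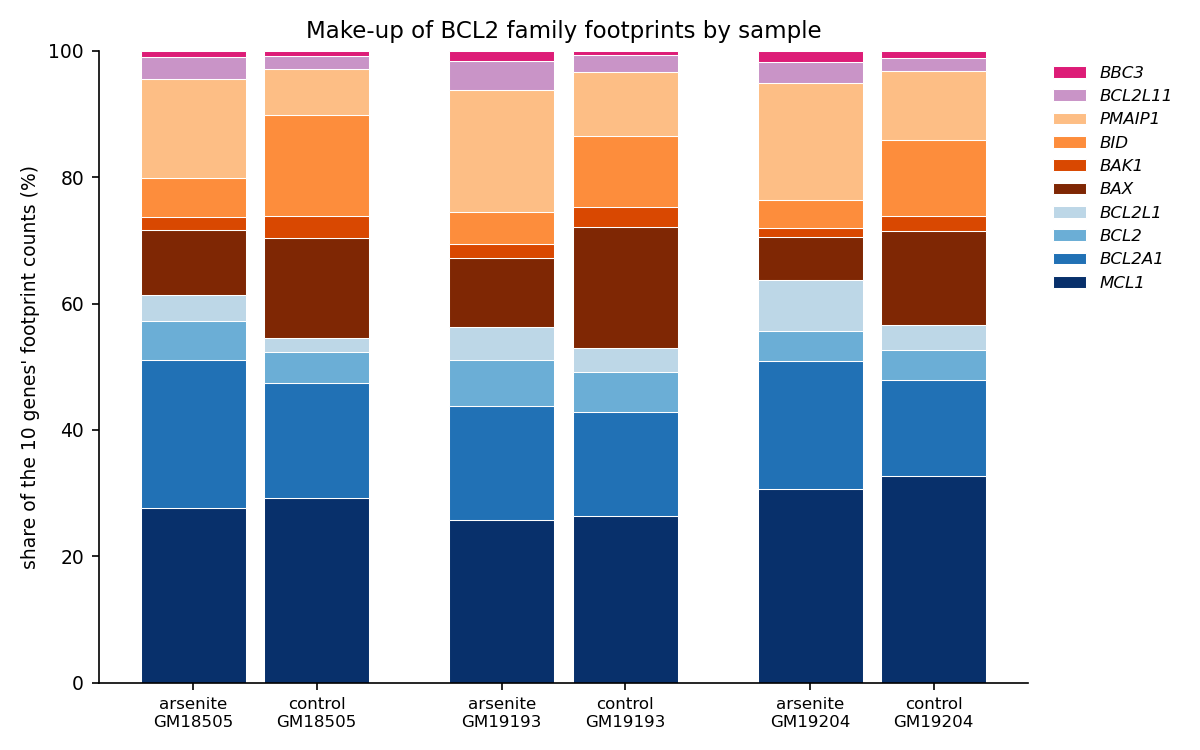
Share of each gene in the summed footprint counts of the 10 members (vertical axis, percent), with the arsenite culture left of the control culture for each cell line, survival genes in blue and death genes in the other colours. The PMAIP1 band is wider and the BID and BAX bands are narrower under arsenite in every cell line, while the MCL1 band stays between 25.8% and 32.7% in all samples.

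The make-up of the family's footprints shifted in the same way in each line. The 10 members together took 814, 993 and 1142 per 1000000 gene counts in arsenite cultures of GM18505, GM19193 and GM19204, against 859, 928 and 1129 in their control cultures. PMAIP1 made up 17.9% ± 1.89 under arsenite, against 9.51% ± 1.91 in control (SD, n = 3 each). BID made up 5.18% ± 0.874 under arsenite, against 13.1% ± 2.54 in control, and BAX 9.32% ± 2.30 under arsenite, against 16.6% ± 2.29 in control. MCL1 made up 28.1% ± 2.42 under arsenite, against 29.4% ± 3.16 in control, and was lower in 3 of 3 lines. BCL2A1 made up 20.5% ± 2.71 under arsenite, against 16.6% ± 1.504 in control, and was higher in 3 of 3 lines. The shares of BAX, BAK1, BCL2L11, PMAIP1 and BID did not overlap between the groups, and an exact sign-flip test over 3 cell lines gave p = 0.25 for each of the 10 shares, which it cannot go below. The shares of a sample sum to a fixed whole, so a gain in some genes lowers the shares of others. How often shares of other gene sets lie apart in this way was not examined.

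Levels of different genes were compared per kb of exons. BCL2A1 stood highest, with 389 ± 80.8 under arsenite and 989 ± 195 in control (SD, n = 3 each, scaled counts per kb). In control cultures BAX followed with 382, MCL1 with 289 and PMAIP1 with 271, and neighbours in this order differed by less than the larger of their SDs, which ran from 91.2 to 123. In arsenite cultures PMAIP1 came second with 162 ± 66.1, ahead of MCL1 with 87.0 ± 26.5 and BAX with 69.9 ± 31.8, and MCL1 and BAX lay within each other's SD. BCL2, BCL2L11 and BBC3 were the lowest in both groups, with means from 9.49 to 11.1 under arsenite and from 18.3 to 25.2 in control. Per kb of coding sequence, which in PMAIP1 has only 162 nt of 2186 bases of exons, PMAIP1 ranked first instead, with 2185 ± 892 under arsenite and 3655 ± 1657 in control, ahead of BCL2A1 with 737 ± 153 under arsenite and 1874 ± 369.6 in control.

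The balance of survival to death footprints was computed from these levels. The log2 ratio of the 4 summed survival genes to the 6 summed death genes, per kb of exons, was 1.027, 0.545 and 1.001 in arsenite cultures of GM18505, GM19193 and GM19204, against 0.651, 0.411 and 0.524 in their control cultures. It was higher under arsenite in 3 of 3 lines, by 0.33 ± 0.18 (exact two-sided sign-flip p = 0.25, the smallest possible). Per kb of coding sequence, a choice made after seeing the data that gives PMAIP1 more weight, the difference was −0.10, so the direction of this balance depends on how gene length is taken.

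Other genes of the pathway were read from the same fit. Of 78 listed genes, 73 were in the table, of which 64 fell, 2 rose and 7 did not pass on the spike-in scale, while relative to the typical gene 32 fell and 15 rose. Over all genes 74.1% fell and 1.12% rose on the spike-in scale, and 26.6% fell and 27.8% rose relative to the typical gene, the shares beside which each list's counts stand. On a list of 11 tested genes, made up of other BCL2 family genes and BNIP genes, 10 fell. The smallest p belonged to BNIP genes, namely BNIP3L (−3.22, edgeR adjusted p = 7.25e-14), BNIP3 (−3.27, 3.42e-13) and BNIP2 (−2.59, 7.95e-10). The proteins of BNIP3L and BNIP3 mark mitochondria for autophagy. BCL2L14 did not pass. All 10 genes of the mitochondrial outer membrane and its dynamics fell, with a median log2 fold change of −2.74. VDAC2 (−3.32), the channel protein that binds BAK and BAX, had the smallest p among them, followed by VDAC3 (−3.10) and VDAC1 (−3.08).

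Downstream of the mitochondria, 13 of 15 genes of the apoptosome and caspases fell, with a median of −2.31. CASP6 (−2.88, edgeR adjusted p = 4.35e-10) and AIFM1 (−2.50) were among those with the smallest p. CASP10 and the thinly counted DIABLO, the antagonist of XIAP, did not pass, at −0.82 and −0.21 on the log2 scale. All 5 inhibitors of apoptosis fell, with a median of −1.89, and their 3 smallest p belonged to BIRC5 (−3.26), BIRC2 (−2.37) and BIRC6 (−1.89). In the death receptor arm upstream of BID, 5 of 7 fell, among them FADD (−2.52), TRADD (−2.41) and FAS (−2.15), while TNFRSF1A and RIPK1 did not pass.

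Both pathway genes that rose on the spike-in scale were on the list drawn up for inducers of the death genes. That list also holds stress and p53 regulators that are not such inducers, PPP1R15A and MDM2 among them. The 15 that rose relative to the typical gene came from 7 of the 8 lists, 4 of them from this list and 4 from the death receptor arm. On the spike-in scale, among the 7 tested genes of this list, PPP1R15A and ATF4 rose, 3 fell and 2 did not pass. ATF4, a stress transcription factor known to induce PMAIP1 and BBC3, had 633, 760.2 and 619 scaled counts in arsenite cultures, against 409.9, 329.8 and 444 in control cultures, in the same order of lines. Its groups were apart, and its log2 fold change was 0.77 (edgeR adjusted p = 0.0438). PPP1R15A, the phosphatase subunit that reverses eIF2 alpha phosphorylation, rose by 1.10 (edgeR adjusted p = 0.00375). Without GM18505 neither passed, and without GM19204 only PPP1R15A did. ATF4 also lost its call with counts left unscaled (edgeR adjusted p = 0.124), with the oligomers numbered 3 and 4 (0.05001) and in the T libraries alone (0.186), where PPP1R15A passed. TRIB3, a pseudokinase induced under stress, fell by 1.97 (edgeR adjusted p = 6.51e-06).

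Genes that control how long MCL1 protein lasts, 8 of 8, fell, with BTRC at −3.07, USP9X, its deubiquitinase, at −2.49 and HUWE1, its ubiquitin ligase, at −2.47 having the smallest p. The 10 genes of the NF-kB pathway, which induces BCL2A1 and BCL2L1, fell as well, NFKB1 (−2.73), CHUK (−2.65) and RELA (−2.35) first by p. Their median log2 fold changes of −2.30 and −1.99 lie beside −1.78 for all genes and −2.21 for genes with a mean of at least 100 counts.

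**Figure D4:**
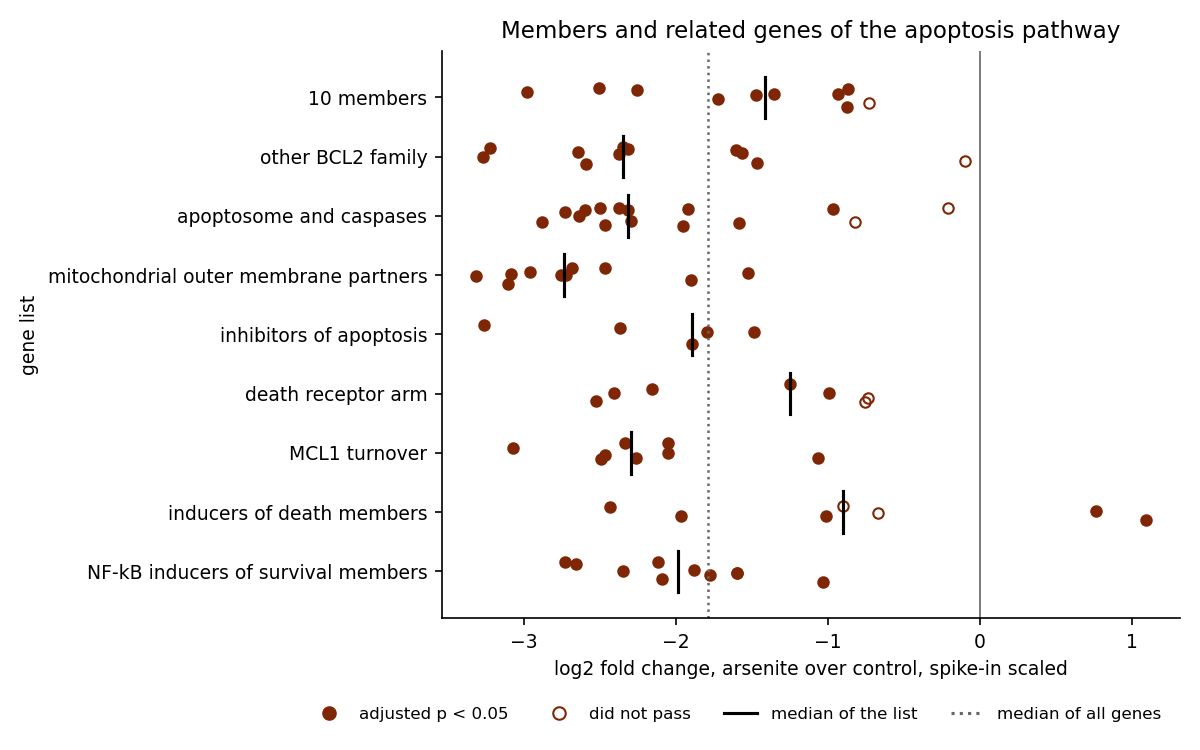
Log2 fold change of arsenite over control on the spike-in scale (horizontal axis) for the 10 members and for each list of related genes, 1 point per gene, filled where the adjusted p was under 0.05, with a black bar at the list's median and a dotted line at the median of all genes. The members spread from −2.98 to −0.73, and only PPP1R15A and ATF4 lie to the right of 0.

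The genes whose 3 log2 fold changes lay nearest to those of MCL1, among 6010 genes with a symbol and a mean of at least 100 counts, were TBC1D5, LIMK2, CHMP5, ZNF644 and CENPJ, at Euclidean distances from 0.0427 to 0.0815. Nearest to BCL2A1 were SUGP1, FCF1, ILRUN, EIF1AD and H4C5, at distances from 0.0465 to 0.0878. Neither set holds another member of the family.

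Some members share exon bases with other genes, and whether reads were counted by strand is not given in the sources used here. BCL2L1 shares 1735 of 4197 exon bases with ABALON on the opposite strand, BCL2L11 727 of 6742 with MIR4435-2HG on the opposite strand and MCL1 328 of 6222 with ADAMTSL4-AS1 on its own strand and 43 with ADAMTSL4 on the opposite strand. BBC3 shares 76 of 3185 bases with MIR3191 on its own strand and 80 with MIR3190 on the opposite strand, and BAK1 91 of 2212 with GGNBP1 on the opposite strand. Reads from these stretches cannot be assigned with certainty.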

How the data were processed

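Ribosome footprints were sequenced from an arsenite culture (134 µM for 30 min) and a control culture of each of 3 lymphoblastoid cell lines. The authors deposited raw counts for genes and oligomers. They trimmed the reads, discarded those matching rRNA, tRNA or snoRNA, aligned the rest to GRCh38 by TopHat2 with GENCODE release 37, retained unique alignments and assigned them to genes by featureCounts (Subread). Genes lacking a read in any library were dropped. Tool versions: not given in the sources used here. Unique mapping lowers genes with near-identical copies.

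Counts of the T and U libraries were summed per culture, since they are technical replicates. A sample's scale was its oligomers' log2 counts less their log2 nominal concentrations, averaged over the 7 oligomers that reached 10 reads in all libraries, with standard errors from 0.0733 to 0.163 across samples. The nominal concentrations came from the pooling design in the study's methods. Genes were tested with edgeR 4.0.16 (glmQLFit, glmQLFTest, two-sided) in R 4.3.3 with cell line and treatment in the model and Benjamini-Hochberg adjustment over 12357 genes at 0.05. The cell line pairs the samples, as arsenite and control cultures share their line, and deviations from the group means correlated from 0.686 to 0.743 within pairs (6045 genes). Log2 ratios within a line used a pseudocount of 0.5. Alternatives were no scaling, TMM, other oligomer sets, DESeq2 1.42.0, limma 3.58.1 (pseudocount 0.25), separate libraries, T or U alone, no cell line term, a mean count of at least 20 and each line left out. SD values cover the spread between 3 cell lines only. SE values come from the edgeR fit, which draws on all genes to estimate dispersion, and they are not that spread. BCL2L1 had an SE of 0.39 and an SD between lines of 0.14, and BBC3 an SE of 0.42 and an SD of 0.91. Counting error limits members with few reads. On simulated counts of 12357 genes, edgeR recovered 86% and 88% of 50 genes each with log2 changes of 2 and −2, 12% and 6% at 1 and −1, and called 1 of 12157 unchanged genes. These simulated counts had few changed genes and were tested with their true library scales, whereas 74.1% of genes fell in the data. The rates therefore do not describe the calls made here.

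Symbols, positions and transcripts came from GENCODE release 44 on GRCh38, and all 10 members matched. The members and lists were chosen with earlier results of these data known. The text names every member, the list genes that rose and the 3 with the smallest p of each list, and the 5 genes nearest to MCL1 and to BCL2A1. A few genes picked by this rule are left out of the text. Genes named because they did not pass were picked after their values were seen. Figures were drawn with matplotlib 3.10.9.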

Additional observations from a re-analysis of the deposited data

How the results depend on the processing

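Under 15 alternatives, the 10 members' log2 fold changes gave 150 values, of which 106 kept their direction and their side of the threshold, 26 kept the direction but no longer passed, 4 newly passed and 14 changed sign. The sign changes came from TMM and from DESeq2 with its own size factors, which set the typical gene near 0. TMM gave 0.10 for MCL1, 0.34 for BCL2, 0.95 for BCL2L1, 0.47 for BCL2A1, 0.95 for BCL2L11, 0.91 for BBC3 and 1.09 for PMAIP1. DESeq2 with its own size factors gave 0.10 for MCL1, 0.34 for BCL2, 0.95 for BCL2L1, 0.47 for BCL2A1, 0.95 for BCL2L11, 0.90 for BBC3 and 1.08 for PMAIP1. With TMM 2 members fell and 6 rose, and 32 pathway genes fell and 15 rose. With DESeq2's own size factors 2 members fell and 4 rose, and 27 pathway genes fell and 14 rose. Of all 12357 genes, 3290 fell and 3433 rose with TMM, and 2673 fell and 2843 rose with DESeq2's own size factors. Leaving out 1 cell line gave from 3 to 10 members that fell, beside 54.3% to 78.0% of all genes, and from 0 to 2 pathway genes that rose. The cause of this range was not tested. Of the pathway genes, 1 rose with no scaling, 1 with the oligomers numbered 3 and 4 and 1 with the T libraries alone, ATF4 being the one that lost its call, and the cause was not tested. With no replicate block for the cell line, 6 members and 61 pathway genes fell, beside 8421 of all 12357 genes. The difference of BCL2A1 from the other members, −0.0084, was 0.0021 with a pseudocount of 0, 0.0061 with the T libraries, 0.0392 with the U libraries, 0.226 from the mean of the others and 0.143 with PMAIP1 left out, and ran from −0.0678 to 0.08 with 1 cell line left out. The survival to death ratio changed by −0.0993 per kb of coding sequence, where PMAIP1 weighs more. The difference of MCL1, −0.38, stayed below 0 under its alternatives and ran from −0.52 with the log2 fold changes of the edgeR fit to −0.14 from the mean of the others. Each of these alternatives kept BH3-only genes among the others. None set MCL1 or BCL2A1 against the genes of stable proteins alone, of which MCL1 lay below BCL2 and BCL2L1 and above BAX and BAK1. BBC3, with 3 to 30 reads per arsenite library, is limited by depth.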

Other observations

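A set of 7 pathway genes did not pass on the spike-in scale and were picked here after their values were seen. DIABLO, which encodes the protein that leaves mitochondria through BAX and BAK pores and frees caspases from XIAP, had log2 fold changes of −0.21 (edgeR adjusted p = 0.701) on the spike-in scale and 1.605 (adjusted p = 0.0095) with TMM. RIPK1, a kinase of the death receptor complex, had −0.76 (edgeR adjusted p = 0.0682) on the spike-in scale and 1.06 (adjusted p = 4.53e-04) with TMM. E2F1, a transcription factor of the cell cycle, had −0.67 (edgeR adjusted p = 0.121) on the spike-in scale and 1.13 (adjusted p = 0.00203) with TMM, and CASP10, an initiator caspase of the death receptors, had −0.82 (edgeR adjusted p = 0.0571) on the spike-in scale and 0.97 (adjusted p = 0.00376) with TMM. BCL2L14, a distant family member, had −0.09 (edgeR adjusted p = 0.871) on the spike-in scale and 1.71 (adjusted p = 0.0288) with TMM. Both DIABLO, with 10 to 14 summed counts per sample, and BCL2L14, with 5 to 22, were counted thinly, and BCL2L14 had log2 fold changes of 0.09 (GM18505), 1.70 (GM19193) and −1.75 (GM19204). TNFRSF1A, a receptor for TNF, had −0.74 (edgeR adjusted p = 0.104) on the spike-in scale and 1.06 (adjusted p = 0.0138) with TMM, and FOXO3, which is known to induce BCL2L11 and BBC3, had −0.90 (edgeR adjusted p = 0.0543) on the spike-in scale and 0.92 (adjusted p = 0.0676) with TMM.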
